A study of Saccharomyces cerevisiae with 4 samples.

Results

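The histone genes of budding yeast were described as templates of RNA polymerase II, through the binding of its subunits Rpb4 and Rpb3. The set held 10 genes: the core histone genes HTA1 and HTA2 (H2A), HTB1 and HTB2 (H2B), HHT1 and HHT2 (H3), HHF1 and HHF2 (H4), the H2A.Z gene HTZ1 and the linker histone gene HHO1. They were chosen by name and not by a measured value, though earlier results of these data were known at the time. A probe lay inside 6 of the 10 genes, out of 5493 genes with such a probe in all: 1 probe each in HTA1, HTA2, HTB2, HHT1 and HHT2 and 2 probes in HHO1. HTB1, HHF1, HHF2 and HTZ1 had no probe inside them and were read only from their flanks. The 12 probes in the promoters shared by the 4 core gene pairs completed the set, which made 19 probes.

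Chromatin immunoprecipitation was followed by hybridisation to tiling microarrays of 60-nucleotide probes about 290 bp apart. One group was a Saccharomyces cerevisiae S288c strain with TAP-tagged Rpb4 (2 arrays), the other an S288c strain with TAP-tagged Rpb3 (2 arrays). Rpb3 is part of the core enzyme, and Rpb4 forms with Rpb7 a stalk that can leave it. Both strains grew in YPD, a rich medium, at 25 °C to log phase at an optical density of about 0.8, and were fixed with 1% formaldehyde for 20 min. Each group is a single tagged strain, and the labels do not say whether its arrays came from separate cultures, so p-values measure only the spread between arrays, which may be technical. Log-phase cultures hold cells of every cycle stage, so polymerase in more cells and more polymerase per cell cannot be told apart. A control from untagged cells was not used here.

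Pairs of H2A, H2B, H3 and H4 form the core of the nucleosome, around which DNA is wrapped. Yeast carries each core histone gene in 2 copies, arranged as 4 pairs (HTB1-HTA1, HTA2-HTB2, HHF1-HHT1 and HHT2-HHF2) whose members are transcribed away from each other from a shared promoter. Their transcription peaks in S phase, when DNA is replicated. Outside S phase the HIR complex with the chaperones Asf1 and Rtt106 represses every pair except HTA2-HTB2. H2A.Z, which the SWR1 complex places beside promoters, and the linker histone are made from single genes.

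Occupancy is given as log2 of immunoprecipitated DNA (IP, Cy5) over whole-cell extract, the input DNA (WCE, Cy3), with each array's median probe set to 0, so a gene at 0 is an average template and may still carry polymerase. All 4 arrays lay on 1 slide with the same dye orientation and held 41775 data probes each. Typical IP spots were 72.9 to 126 times as bright as their background, and typical WCE spots 151 to 168 times (medians).

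All 5 measured core histone genes lay among the more strongly occupied genes with either subunit, and HHO1 did not. The core genes had a median occupancy of 2.07 with Rpb4 and 2.50 with Rpb3, against medians over all 5490 genes tested of 0.05 and 0.03. The 457 genes that, like these, had 1 probe stood at medians of 0.32 and 0.40. With either subunit, 5 of the 6 measured histone genes exceeded the median probe (limma, Benjamini-Hochberg adjusted p under 0.05), where 37.9% of all genes did so with Rpb4 and 38.4% with Rpb3. The adjusted p of the 5 core genes was 0.00077 at most with Rpb4 and 0.00046 at most with Rpb3.

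HHT2, which encodes histone H3, had the highest occupancy of the 6. Its probe (chromosome 14, positions 575611 to 575670 in the files' coordinates, whose build is not given in the sources used here) lies 406 bp into the gene. The probe read 2.88 and 3.07 on the Rpb4 arrays and 3.14 and 3.57 on the Rpb3 arrays. These levels correspond to 7.88 times the median probe with Rpb4 and 10.2 times with Rpb3. Only 15 of 5490 genes were higher with Rpb4 and 17 with Rpb3. The groups did not overlap, with a difference between Rpb4 and Rpb3 of -0.37 ± 0.17 (SE) that did not pass (limma, adjusted p = 0.295).

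HHT1, the other H3 gene, was probed at nearly the same place, 400 bp into the gene (chromosome 2, positions 256658 to 256717). It read 1.90 and 2.07 with Rpb4 and 2.29 and 2.71 with Rpb3. The groups did not overlap, and the difference of -0.51 ± 0.16 was the largest in size of the 6 genes, with an unadjusted p of 0.0323 and an adjusted p of 0.189 (limma). HHT2 exceeded HHT1 on every array, by 0.98 and 1.01 with Rpb4 and by 0.85 and 0.86 with Rpb3, which is 1.99 and 1.81 times on the linear scale. The coding sequences of the histone copies are nearly alike, and hybridisation of one copy's DNA to the other's probe was not tested.

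The H2A genes, each 399 bp long, were probed 179 bp into HTA1 (chromosome 4, positions 915670 to 915729) and 183 bp into HTA2 (chromosome 2, positions 235542 to 235601). HTA1 read 2.13 and 2.38 with Rpb4 and 2.42 and 2.64 with Rpb3. HTA2 read 2.0 and 2.14 with Rpb4 and 2.33 and 2.62 with Rpb3. In both genes the Rpb4 arrays lay below the Rpb3 arrays, by -0.28 ± 0.13 for HTA1 (limma, adjusted p = 0.295) and by -0.41 ± 0.12 for HTA2 (unadjusted p = 0.0274, adjusted p = 0.178). The copies stood much closer than those of H3: HTA1 exceeded HTA2 by 0.13 and 0.24 on the Rpb4 arrays and by 0.09 and 0.02 on the Rpb3 arrays.

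HTB2, which encodes H2B, was the lowest of the measured core genes. Its probe (chromosome 2, positions 236697 to 236756) lies 273 bp into the gene and read 1.60 and 1.78 with Rpb4 and 1.73 and 2.13 with Rpb3. It was the core gene whose groups overlapped, with a difference of -0.24 ± 0.16 (limma, adjusted p = 0.418). Even so, only 129 genes were higher with Rpb4 and 147 with Rpb3.

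The order from high to low was HHT2, HTA1, HTA2, HHT1, HTB2 and HHO1 with Rpb4, and HHT2, HTA1, HHT1, HTA2, HTB2 and HHO1 with Rpb3. HHT2 lay above HTA1, and HTB2 below the genes above it, without overlap of their arrays in either group. The probes sit at different places in their genes, and the part of this in the order was not tested. HTA1, HTA2 and HHT1 formed a middle group. Neighbours within it overlapped in their arrays with both subunits. In both groups the second array read higher than the first in all 5 core genes, where it did so in 3362 of 5490 genes with Rpb4 and 2562 with Rpb3.

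**Figure D1:**
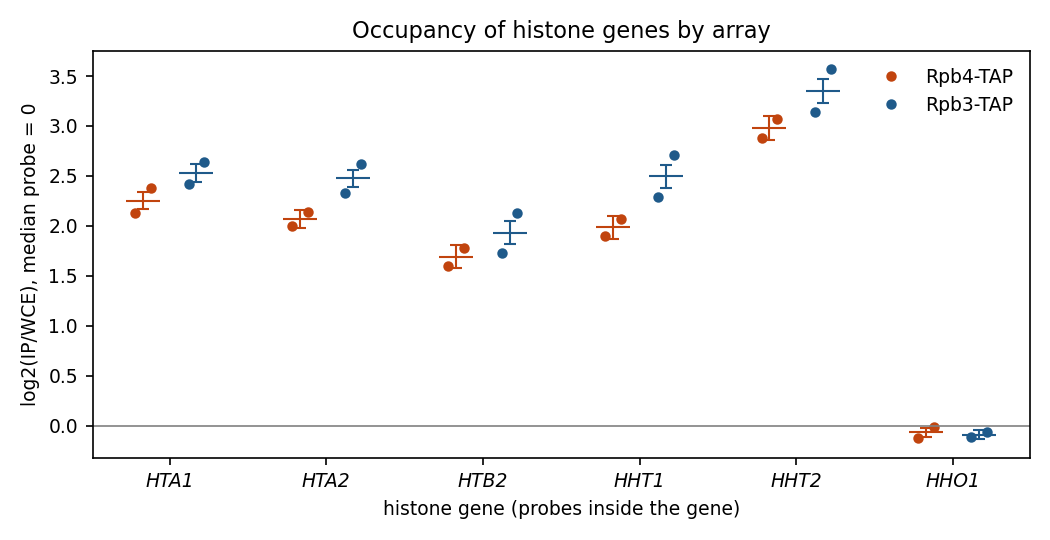
Occupancy (log2 IP/WCE, median probe = 0) of the 6 histone genes with a probe inside, Rpb4 left and Rpb3 right in each gene. Points are arrays, and horizontal bars with whiskers are the limma estimate ± SE: the 5 core genes sit between 1.60 and 3.57 on every array, and HHO1 sits just under 0.

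HHO1, the linker histone gene, stood at the level of the median probe. Its gene mean was -0.12 and -0.02 on the Rpb4 arrays and -0.11 and -0.07 on the Rpb3 arrays, and neither group passed against 0 (limma, adjusted p = 0.265 with Rpb4 and 0.154 with Rpb3). With Rpb4 3421 genes were higher, and with Rpb3 3371. The difference between groups was 0.02 ± 0.07 (adjusted p = 0.852). Its probes went opposite ways: the one 267 bp into the gene differed by 0.25 ± 0.12 (adjusted p = 0.411) and the one 91 bp into it by -0.20 ± 0.15 (adjusted p = 0.516).

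The shared promoters of the core pairs were occupied as well. Of the 12 probes between the paired genes, 10 were above the median probe with Rpb4 and 12 with Rpb3 (limma over all 41563 probes, adjusted p under 0.05), where 13.2% of all divergent promoter probes were with Rpb4 and 23.3% with Rpb3, and 26.1% and 28.6% of all probes. Their median occupancy was 1.83 with Rpb4 and 2.54 with Rpb3, against -0.32 and -0.12 over the 3377 divergent promoter probes. The probes with Rpb4 that did not pass were the most central probe of HTB1-HTA1 (adjusted p = 0.200) and that of HHF1-HHT1 (adjusted p = 0.0553).

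In HTB1-HTA1, an intergenic region of 817 bp, occupancy was high at each end and low in the middle. The probe 8 bp upstream of HTB1 read 2.15 and 2.17 with Rpb4 and 2.47 and 3.12 with Rpb3. The probe 457 bp upstream of HTB1 and 360 bp upstream of HTA1 read 0.22 and 0.09 with Rpb4 and 0.59 and 0.43 with Rpb3. The probe 135 bp upstream of HTA1 read 2.17 and 2.03 with Rpb4 and 2.55 and 3.19 with Rpb3. On all 4 arrays the central probe was thus the lowest of the 4 probes in that promoter.

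HHF1-HHT1, with 646 bp between the genes, had the same shape. The probe 16 bp upstream of the H4 gene HHF1 read 2.18 and 2.15 with Rpb4 and 2.51 and 2.96 with Rpb3. The central probe, 368 bp upstream of HHF1 and 278 bp upstream of HHT1, read 0.44 and 0.17 with Rpb4 and 0.80 and 0.73 with Rpb3. The probe 75 bp upstream of HHT1 read 1.99 and 1.87 with Rpb4 and 2.38 and 2.85 with Rpb3.

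The HTA2-HTB2 promoter (699 bp) was lowest on the HTB2 side of its middle. The probe 237 bp upstream of HTA2 read 1.74 and 1.69 with Rpb4 and 2.36 and 2.57 with Rpb3. The probe 186 bp upstream of HTB2 read 0.53 and 0.49 with Rpb4 and 1.24 and 1.64 with Rpb3. The probe 17 bp upstream of HTB2 read 1.23 and 1.37 with Rpb4 and 1.77 and 1.46 with Rpb3. In HHT2-HHF2 (676 bp) the probes lay 99 bp upstream of HHT2 and 15 bp upstream of the H4 gene HHF2, and none lay near the middle. The first read 2.16 and 2.02 with Rpb4 and 2.69 and 2.98 with Rpb3, and the second 2.13 and 2.19 with Rpb4 and 2.64 and 2.98 with Rpb3.

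The depth of the central low was set against other divergent promoters, as a description chosen after these values were seen. In 612 promoters the most central probe lay at least 150 bp from both genes, and the mean of the probes less than 150 bp from a gene was subtracted from it. The result had a median of -0.20 with Rpb4 and -0.24 with Rpb3. HTB1-HTA1 stood at -1.98 with Rpb4 and -2.32 with Rpb3, and 12 and 10 promoters were lower. HHF1-HHT1 stood at -1.74 with Rpb4 and -1.91 with Rpb3, and 21 promoters were lower in each group. HTA2-HTB2 went the other way, at 0.42 with Rpb4 and 0.85 with Rpb3. Its most central probe was not the low one, and only the probe 17 bp upstream of HTB2 was subtracted. The low probe, 186 bp upstream of HTB2, entered neither term.

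The channels behind these lows were also read separately, each as log2 intensity relative to its array's median. At the HTB1-HTA1 centre the WCE stood at 0.11 and 0.13 in the Rpb4 strain and -0.01 and 0.15 in the Rpb3 strain. At the probe 135 bp upstream of HTA1 it stood at -1.34 and -1.31 in the Rpb4 strain and -1.47 and -1.65 in the Rpb3 strain. The IP differed less between these probes, with 0.29 and 0.19 (Rpb4) and 0.54 and 0.57 (Rpb3) at the centre, and 0.80 and 0.69 (Rpb4) and 1.04 and 1.54 (Rpb3) beside HTA1. In HHF1-HHT1 the IP at the centre, 0.63 and 0.45 with Rpb4 and 0.82 and 0.93 with Rpb3, was close to that beside HHF1 with Rpb4 (0.51 and 0.47) and above it with Rpb3 (-0.08 and 0.26). WCE there was 0.22 and 0.31 (Rpb4) and 0.06 and 0.20 (Rpb3) at the centre, and -1.64 and -1.64 (Rpb4) and -2.55 and -2.69 (Rpb3) beside HHF1. At the other flank of HTB1-HTA1, 8 bp upstream of HTB1, the IP stood at 1.33 and 1.29 with Rpb4 and 1.5 and 2.12 with Rpb3, and the WCE at -0.79 and -0.83 in the Rpb4 strain and -0.93 and -0.99 in the Rpb3 strain. There the IP differed from the centre by more than the input did on every array. Beside HTA1 and beside HHF1 the input differed from the centre by more than the IP did on every array. Intensity of a single channel also depends on how well each probe hybridises. Whether the ratio removes this fully, and the part of either channel in these lows, was not tested.

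**Figure D2:**
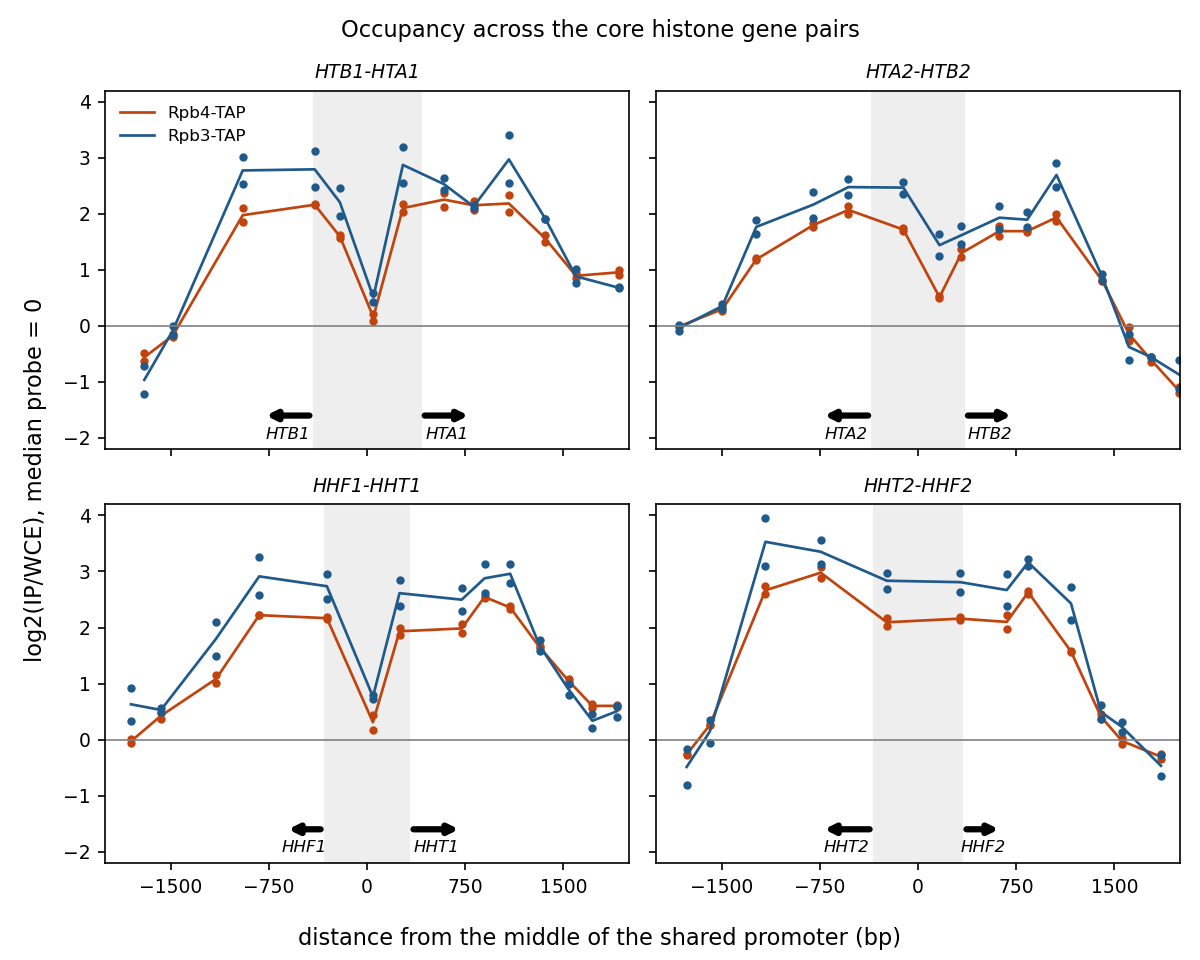
Occupancy (log2 IP/WCE, median probe = 0) against distance from the middle of each core pair's shared promoter (bp). Lines are group means, points are arrays, grey marks the shared promoter and arrows the genes: signal falls to 0.16 with Rpb4 and 0.51 with Rpb3 in the middle of HTB1-HTA1 and reads 1.98 with Rpb4 and 2.77 with Rpb3 at the first probe past the end of HTB1.

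High occupancy continued past the ends of the core genes. The 5 probes annotated as downstream of a core gene are not counted in the set. All 5 exceeded the median probe in both groups (limma, adjusted p under 0.05). Of all probes, 26.1% did so with Rpb4 and 28.6% with Rpb3. The medians of the 5 were 1.98 with Rpb4 and 2.67 with Rpb3. The probe 145 bp past the end of HTB1 read 1.85 and 2.10 with Rpb4 and 2.53 and 3.01 with Rpb3. The probe 28 bp past the end of HHF2 read 1.98 and 2.22 with Rpb4 and 2.38 and 2.95 with Rpb3. The probe 164 bp past the end of HHT1 read 2.57 and 2.53 with Rpb4 and 2.62 and 3.13 with Rpb3, above the probe inside HHT1 on every array. With fragments of 400 to 500 bp, a probe also reads DNA bound some way to either side, so the genes with no probe of their own, HTB1, HHF1 and HHF2, lie between occupied probes but have no value of their own.

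Some genes next to the pairs also read high at the probes nearest to a histone gene. Whether that signal belonged to the histone genes or to the neighbours was not tested. ECM15, beyond HTB2, has 1 probe, which read 1.87 and 2.0 with Rpb4 and 2.48 and 2.91 with Rpb3 (difference -0.76 ± 0.16, limma, adjusted p = 0.0999). The nearest probe inside SIW14, a phosphatase gene beyond HHT2, read 2.59 and 2.74 with Rpb4 and 3.10 and 3.96 with Rpb3. The nearest probe inside KTR5, a mannosyltransferase gene beyond HHF2, read 2.60 and 2.66 with Rpb4 and 3.10 and 3.22 with Rpb3. Over the whole gene, SIW14 averaged 0.89 with Rpb4 and 1.06 with Rpb3, and KTR5 0.64 with Rpb4 and 0.96 with Rpb3.

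The other neighbours ranged from near 1 to below 0 over their length, but some read higher at the probe nearest to a histone gene. The nearest probe inside UTP20 read 1.19 with Rpb4 and 1.77 with Rpb3, and that inside IPP1 1.65 and 1.68 (group means). The nearest promoter probe of FLR1 read 2.22 with Rpb4 and 2.91 with Rpb3, and that of ADK1 2.15 and 2.13. The nearest probe annotated to CRF1, as downstream, read -0.17 with Rpb4 and -0.08 with Rpb3. ADK1 (adenylate kinase), beyond HTA1, averaged 0.92 with Rpb4 and 0.78 with Rpb3, and IPP1 (inorganic pyrophosphatase), beyond HHT1, 0.98 and 0.85. FLR1, a drug transporter gene beyond HHF1, averaged 0.21 with Rpb4 and 0.53 with Rpb3 (difference -0.32 ± 0.06, adjusted p = 0.0686). UTP20, a ribosomal RNA processing gene beyond HTA2, stood at -0.03 with Rpb4 and -0.04 with Rpb3, and CRF1, beyond HTB1, at -0.50 and -0.51.

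HTZ1, the H2A.Z gene, had flanks below the level inside the measured core genes. Of the 5 probes in the promoter it shares with PLB3 (1365 bp), 3 exceeded the median probe with Rpb4 and 3 with Rpb3, where 13.2% of all divergent promoter probes did so with Rpb4 and 23.3% with Rpb3. The probe 59 bp upstream of HTZ1 read 0.59 and 0.55 with Rpb4 and 0.45 and 0.28 with Rpb3. A probe past the end of HTZ1, annotated to the promoter of HRD1 (an endoplasmic reticulum ubiquitin ligase), read 0.66 and 0.50 with Rpb4 and 0.60 and 0.78 with Rpb3. PLB3, a phospholipase gene, averaged 0.61 with Rpb4 and 0.84 with Rpb3. HRD1 averaged -0.19 with Rpb4 and -0.35 with Rpb3 (difference 0.16 ± 0.06, limma, adjusted p = 0.234). All these values lie under the lowest array value of the 5 measured core genes, 1.60. The probe values overlap those of the central promoter probes of HTB1-HTA1 (0.09 to 0.59) and HHF1-HHT1 (0.17 to 0.80).

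At HHO1 neither probe of the promoter shared with NAN1 (605 bp) passed against the median probe in either group (limma, adjusted p under 0.05). The probe 78 bp upstream of HHO1 read -0.10 and -0.08 with Rpb4 and 0.13 and 0.16 with Rpb3, and the one 583 bp upstream -0.34 and -0.47 with Rpb4 and -0.05 and -0.65 with Rpb3. The one raised probe near the gene lay past its end, in the promoter of TBF1, a telomere-repeat binding factor gene, and read 0.92 and 0.86 with Rpb4 and 0.68 and 0.29 with Rpb3. NAN1, a ribosomal RNA processing gene, averaged 0.05 with Rpb4 and 0.08 with Rpb3. TBF1 averaged 0.08 with Rpb4 and -0.27 with Rpb3 (difference 0.34 ± 0.12, limma, adjusted p = 0.203).

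**Figure D3:**
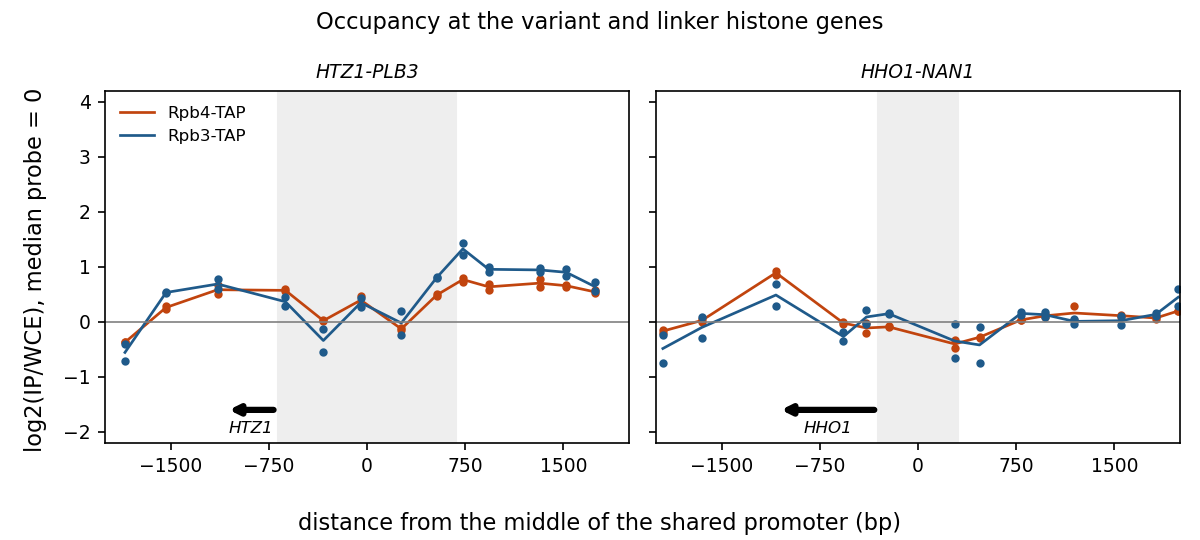
Occupancy (log2 IP/WCE, median probe = 0) against distance from the middle of the promoter of HTZ1 and of HHO1 (bp), on the vertical scale used for the core pairs. Lines are group means and points are arrays: near HTZ1 the probe means run from -0.34 to 0.80 in the promoter, and inside HHO1 from -0.27 to 0.09.

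No histone gene differed between Rpb4 and Rpb3 at an adjusted p under 0.05: 0 of 6 genes, against 3.44% of all genes (limma). At an unadjusted p under 0.05 the count was 2 of 6 (HTA2 and HHT1), against 21.8% of all genes. Both Rpb4 arrays lay below both Rpb3 arrays in 4 of 6 genes, where 28.7% of all genes and 192 of the 457 genes with 1 probe did so. The 5 core genes had a median difference of -0.37, against 0.01 over all genes and -0.09 over the genes with 1 probe. The core median rests on the scaling for its sign. It was 0.05 once all arrays were brought to 1 scale and 0.14 after quantile normalization. The call also rests on single Rpb3 arrays: without Rpb3 array 1, 5 of 6 histone genes passed, as did 62.6% of all genes, and without Rpb3 array 2, 1 of 6 (HHT1) and 26.3% of all genes. Without either Rpb4 array none did.

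In the shared promoters the Rpb4 values were lower at every probe, though no probe passed. Of all 19 probes 0 differed at an adjusted p under 0.05, against 0.907% of all probes (limma), and 13 did so unadjusted, against 14.4%. In the promoters 11 of 12 were lower at an unadjusted p under 0.05, against 26% of all divergent promoter probes. The 12 promoter probes ranged from -0.93 to -0.32 with a median of -0.64, against -0.19 over all divergent promoter probes. Both Rpb4 arrays lay below both Rpb3 arrays at 12 of 12, where 56.4% of all divergent promoter probes did so, and the smallest adjusted p was 0.102. The largest difference, -0.93 ± 0.17, was at the low probe of HTA2-HTB2 (adjusted p = 0.114). Unlike the genes, all 12 kept their sign with 1 scale for all arrays (median -0.33) and with quantile normalization (median -0.26). The smallest in size after quantile normalization was -0.0059. These medians were not set against all divergent promoter probes. Of the 19 probes, only 2 had an unadjusted p under 0.05 with 1 scale, and 2 after quantile normalization (limma). With the dimmest WCE probes left out 10 of the 19 remained, and 6 had an unadjusted p under 0.05. With normexp background correction 1 of the 12 promoter probes, the one beside HHF1, turned to 0.47. Without Rpb3 array 1, 18 of 19 probes passed (69.6% of all probes), and without Rpb3 array 2, 14 of 19 (29.4%).

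**Figure D4:**
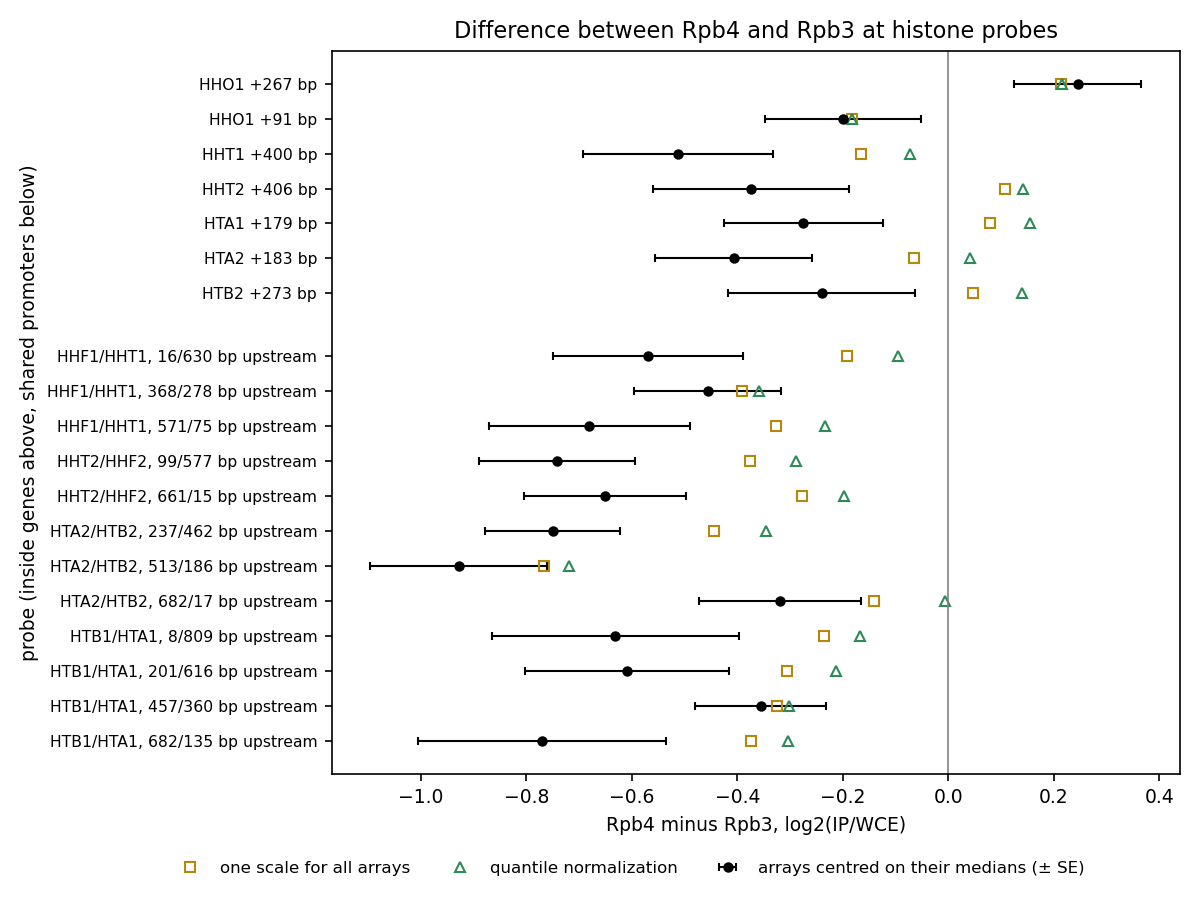
Rpb4 minus Rpb3 in log2(IP/WCE) at the 19 probes, with probes inside genes above and in shared promoters below, named by distance from the gene starts. Black points with whiskers are the estimate ± SE with arrays centred on their medians, squares the values with 1 scale for all arrays and triangles those after quantile normalization: the 12 promoter probes stay under 0 in all 3, and 4 of the 5 core gene probes lie above 0 after quantile normalization.

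The IP and WCE channels moved apart in different ways at genes and promoters. Inside the genes the median Rpb4 minus Rpb3 difference was -0.39 in the IP and 0.00 in the WCE. In the promoters it was -0.47 in the IP, below 0 at 10 of 12 probes, and 0.21 in the WCE, above 0 at 12 of 12. Over all probes the median WCE difference was 0.02, and 56.4% of probes exceeded the 0.0029 of the HHT2 probe. The IP directions were not set against all probes, nor either channel against all divergent promoter probes. At the probe beside HHF1 the input of the Rpb4 strain stood 0.98 above that of the Rpb3 strain, and the IP 0.40 above, so its negative ratio difference came with an input difference. Only 0.271% of all probes had a larger input difference, and the central 95% of probes lay between -0.44 and 0.29. The input differences at the low probe of HTA2-HTB2 (0.49), beside HHT1 (0.41) and beside HTB2 (0.34) also lay above that range. Whether the strains' DNA differed there was not tested.

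Most histone probes were dim in the input, which bears on the levels. The probes inside the 5 core genes had a WCE foreground brighter than only 2.90% to 21.7% of an array's probes, and 9 to 12 of the 19 probes lay in the dimmest 10% of an array. Among the dimmest 5% of probes 14.4% and 19.3% exceeded 2 on the Rpb4 arrays and 18.9% and 18.1% on the Rpb3 arrays, against 1.35% and 1.57%, and 2.16% and 3.21%, of all probes. Both HHO1 probes were near the middle in brightness. The central promoter probes were not dim either. That of HTB1-HTA1 was brighter than 49.2% to 63.6% of an array's probes, and that of HHF1-HHT1 than 56.0% to 80.5%. The share of the ratio that lay in each channel differed between genes. HHT2 had an IP of 1.57 and 1.70 with Rpb4 and 1.80 and 2.24 with Rpb3, and a WCE of -1.27 and -1.34 in the Rpb4 strain and -1.30 and -1.32 in the Rpb3 strain, on the same log2 scale. HHT1 had an IP of 0.43 and 0.47 with Rpb4 and a WCE of -1.44 and -1.55, and HTB2 an IP of 0.64 and 0.71 and a WCE of -0.92 and -1.03, so in these genes the input made the larger part on the Rpb4 arrays. In HTA1 and HTA2 the IP made the larger part on these arrays, with 1.58 and 1.53 for HTA1 and 1.46 and 1.44 for HTA2 with Rpb4, against a WCE of -0.51 and -0.81 for HTA1 and -0.50 and -0.66 for HTA2. With the dimmest 5% of WCE probes left out, HHT1 and HHT2 lost their probe. Of the 4 remaining genes 3 exceeded the median probe with Rpb4, and 3 with Rpb3. Of all genes 38.5% did so with Rpb4 and 39.1% with Rpb3 in that setting. The part of input brightness in the levels was not tested further.

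The genes closest to the mean profile of the 5 core genes over the 4 arrays (2.10 and 2.29 with Rpb4, 2.38 and 2.73 with Rpb3) were found by Euclidean distance. They were CPR1 (a cyclophilin) at a distance of 0.114 and the ribosomal protein genes RPS13 (0.150), RPP0 (0.154), RPS31 (0.171) and RPS3 (0.175). In each of them both Rpb4 arrays lay below both Rpb3 arrays, with differences from -0.44 to -0.32. CPR1 read 2.0 and 2.24 with Rpb4 and 2.35 and 2.73 with Rpb3. RPS3 read 2.0 and 2.19 with Rpb4 and 2.43 and 2.64 with Rpb3, with a difference of -0.44 ± 0.11 that did not pass (limma, adjusted p = 0.139).

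Genes for histone regulators and chaperones did not share the level of the core histone genes. Of 30 such genes, 12 were above the median probe with Rpb4, 7 below and 11 did not pass, and with Rpb3 11 were above, 11 below and 8 did not pass. Of all genes, 37.9% were above and 25.8% below with Rpb4, and 38.4% above and 29.2% below with Rpb3. Their medians were 0.10 with Rpb4 and 0.05 with Rpb3, near those of all genes. The highest was NHP6A, which encodes a high-mobility-group protein that works with the FACT chaperone, at 1.35 and 1.48 with Rpb4 and 1.47 and 1.41 with Rpb3. The next with Rpb4 was VPS75, a chaperone that works with the acetyltransferase Rtt109, at 0.59 and 0.63 with Rpb4 and 0.47 and 0.82 with Rpb3. The lowest was PSH1, a ubiquitin ligase for the centromeric H3 variant, at -0.66 and -0.64 with Rpb4 and -0.64 and -0.76 with Rpb3.

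None of the 30 differed between Rpb4 and Rpb3 at an adjusted p under 0.05 (limma), against 3.44% of all genes, and 4 did so unadjusted, against 21.8%. NHP6B, the near copy of NHP6A, read 0.42 and 0.45 with Rpb4 and 0.74 and 1.20 with Rpb3, a difference of -0.53 ± 0.17 (adjusted p = 0.183). CHZ1, a chaperone of H2A.Z with H2B, differed by -0.18 ± 0.05 (adjusted p = 0.185). On the other side were MSI1, a subunit of chromatin assembly factor 1, at 0.31 ± 0.12 (adjusted p = 0.232), and VPS72, the SWR1 subunit also called SWC2, at 0.29 ± 0.10 (adjusted p = 0.210).

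**Figure D5:**
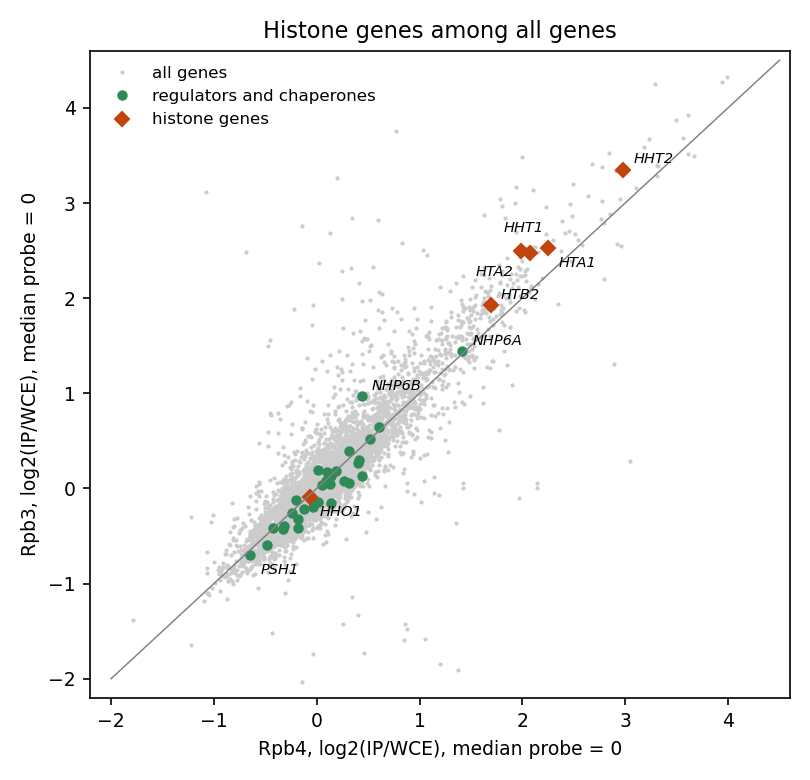
Occupancy of each gene with Rpb4 (horizontal axis) and Rpb3 (vertical axis), as log2 IP/WCE with the median probe at 0. Grey points are all 5490 genes, green points the 30 regulator and chaperone genes and diamonds the 6 histone genes, and the line marks equal values: the 5 core histone genes lie above the line and above every regulator on both axes, and HHO1 lies among the bulk of genes.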

How the data were processed

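The series held 4 two-colour Agilent ChIP-chip arrays, 2 for Rpb4 and 2 for Rpb3, grouped by the labels. Per the submitters' processing notes, spots were read with Agilent Feature Extraction 9.1. For every probe the deposited files hold foreground, background and normalized IP and WCE intensity, per the file headers. Which software normalized them, and on which genome build, is not given in the sources used here. Log2 ratios of the deposited normalized intensities had the median of their array's data probes subtracted, and neither loess nor quantile normalization was applied. Probes with a signal not above 0 (149 and 179 on the Rpb4 arrays, 100 and 81 on the Rpb3 arrays) were left missing. The series-level table was not used, since its rows name no probe.

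Gene values are means over probes that the files annotate as inside a gene. Genes (5490) and probes (41563) were fitted over all 4 arrays with limma 3.58.1 in R 4.3.3 (lmFit, eBayes), two-sided, with Benjamini-Hochberg adjustment over the whole table at 0.05. The fit was tested on simulated data. Tables and figures were made in Python 3.11.15 (pandas 2.3.3, numpy 2.4.6, matplotlib 3.10.9). Gene names, order and lengths came from the R64 table, and positions are those of the files. The histone genes, the list of 30 regulators and chaperones and the tests were chosen with earlier results of these data known. Named besides the histone genes were their direct neighbours, the 2 highest and the lowest regulator in each group, the 2 regulators of largest difference each way, and the 5 genes of nearest profile. Alternatives covered centring, scaling, quantile normalization, background correction, probe filters, the summary per gene, shared probes and each array left out. No paper was used. No sequences are printed, as no sequence table was used here.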

Additional observations from a re-analysis of the deposited data

Results flagged for a closer look

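In 4 results at probes of the histone loci and regulator genes, the Rpb4 arrays and the Rpb3 arrays fell on opposite sides of the median probe. The difference itself was tested with limma and passed in none of them. The share of all genes and of all probes with this pattern is not given here, so no excess is claimed. The probe 349 bp upstream of HTZ1 read 0.01 and 0.03 with Rpb4 and -0.13 and -0.56 with Rpb3, a difference of 0.360 (adjusted p = 0.409). The probe 78 bp upstream of HHO1 read -0.10 and -0.08 with Rpb4 and 0.13 and 0.16 with Rpb3, a difference of -0.240 (adjusted p = 0.388). SWI6, which encodes a subunit of the cell-cycle factors SBF and MBF, read 0.02 and 0.02 with Rpb4 and -0.05 and -0.24 with Rpb3, a difference of 0.164 (adjusted p = 0.338). VPS72 read 0.15 and 0.12 with Rpb4 and -0.03 and -0.28 with Rpb3, a difference of 0.293 (adjusted p = 0.210). Among the neighbours TBF1 did so as well. It read 0.07 and 0.08 with Rpb4 and -0.12 and -0.41 with Rpb3, a difference of 0.343 (adjusted p = 0.203).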

How the results depend on the processing

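The 5 core genes stayed above the median probe in both groups under every alternative that kept their probe. With the dimmest 5% of WCE probes left out the count was 3 with Rpb4 and 3 with Rpb3, of 4 genes, because HHT1 and HHT2 lost their probe. Of all genes, 38.5% exceeded the median probe with Rpb4 and 39.1% with Rpb3 in that setting. Leaving out 1 array at a time gave 0 to 5 histone genes and 0 to 18 probes that differed between the groups, and the counts above 0 came without an Rpb3 array. The lone array is then assumed to vary like the other group. The cause was not tested. With 1 scale for all arrays the Rpb4 minus Rpb3 difference turned to 0.079 for HTA1, 0.047 for HTB2 and 0.11 for HHT2, and with quantile normalization to 0.16 for HTA1, 0.041 for HTA2, 0.14 for HTB2 and 0.14 for HHT2, in their single probes as in the genes. With normexp the probe beside HHF1 turned to 0.47 and HHO1 to -0.030. Leaving out 1 array at a time put HHO1 between -0.030 (without Rpb4 array 2) and 0.075, with -0.001 without Rpb3 array 1. Centring on meiosis genes put HHO1 at 0.45 with Rpb4 and 0.45 with Rpb3 and the median of all genes at 0.57 in each group. Over all genes the number that differed was 189, and between 0 and 3435 under the alternatives. Keeping the probes that the authors' flags exclude changed nothing, since these are the probes whose signal is not above 0. No paired analysis was possible because the arrays carry no replicate numbers that the groups share. Precision is limited by 2 arrays a group. At the dimmest of the 19 probes, beside HHF1, the WCE foreground was still 27.3 times its background.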
